A study of Mus musculus with 7 samples.

Results

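Neural stem cells made from mouse embryonic fibroblasts with OSKM, the 4 reprogramming factors Pou5f1 (Oct4), Sox2, Klf4 and Myc, were set beside neural stem cells taken from embryonic brain. The comparison used 3 of the 7 RNA-seq libraries of the series, and 15739 of 29686 genes reached 2 RPKM (reads scaled to exon length and library depth) in at least 1 of the 3 and were compared. A gene was counted where both converted libraries differed from the primary library in the same direction, by 4-fold or more for single genes and by 2-fold or more for members of gene lists. Ratios were taken as log2 of converted over primary after adding 1 RPKM to each value, and all log2 values below are on this scale, which understates the ratio of genes at low levels.

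The converted cells were of strain B6/129 and carried the transgenes labelled Rosa26-TdTomato B6 female and Col1a-OSKM 129 male. Both converted libraries came from subclones picked mechanically and kept without a fibroblast feeder layer, one positive and one negative for the Nanog-Tomato label, which marks cells in which Nanog-CreER had been active while 4OHT was present. The primary cells were of strain BDF2 and were grown in medium with B27 and N2 supplements, 20 ng/mL bFGF and 20 ng/mL EGF. Their sample description gives E12.5 and the protocol gives E13.5, both embryonic days. The labels state no medium, passage number or sex for the converted cells. Strain, origin and any difference in culture cannot be told apart in this design. Each population had 1 library, so no value has a replicate error, no difference was tested, and what single libraries of the same kind would differ by is not known. Because the same primary library stands in both ratios, the ratios are not independent of each other.

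Neural stem cells of the embryonic brain are dividing progenitors that give rise to neurons, astrocytes and oligodendrocytes, and in culture bFGF and EGF keep them cycling. They are recognised by transcription factors such as Sox2, Pax6 and Olig2, by the filament protein nestin (Nes) and by the lipid-binding protein Fabp7, and many of their genes are shared with astrocytes. Their position along the body axis is recorded by homeobox genes, and their matrix is made of brain proteoglycans, not of the fibrillar collagens that fibroblasts secrete.

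The 10 neural stem cell markers checked were at or above 2 RPKM in all 3 libraries, with medians of 83.2 RPKM in the Tomato-positive, 83.9 in the Tomato-negative and 88.7 in the primary library, against 3.398 RPKM in the fibroblast library of the series (MEF). Inferred depth was 19 megareads (M) in the Tomato-positive, 42 M in the Tomato-negative and 27 M in the primary library. The 8 fibroblast markers checked summed to 1914 RPKM in the Tomato-positive, 135 in the Tomato-negative and 4.74 in the primary library, and to 33898 RPKM in MEF. All 8 were at or above 2 RPKM in both converted libraries, and none of them in the primary library, where none was at 0. Markers of microglia, endothelium, ependyma and neural crest summed to at most 15.0 RPKM in any of the 3 libraries. In bulk RNA, fewer cells of a type and less RNA per cell cannot be told apart.

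Of the 15739 genes, 310 (1.97%) were at least 4-fold higher in both converted libraries and 173 (1.1%) were at least 4-fold lower in both. At 2-fold the counts were 1285 (8.16%) higher and 799 (5.08%) lower. The Tomato-positive library taken alone had 1083 genes (6.88%) at least 4-fold higher than primary and 461 (2.93%) lower, and the Tomato-negative library alone had 464 (2.95%) higher and 234 (1.49%) lower. No gene was 4-fold higher in one converted library and 4-fold lower in the other. Over all genes tested 9617 (61.1%) stood higher in the Tomato-positive than in the Tomato-negative library, and among the 310 higher genes 228 did. The median log2 ratio over all genes tested was 0.28 for the Tomato-positive and 0.09 for the Tomato-negative library, or 0.18 for the mean of both ratios, and list medians below are read against that last value and list counts against 8.16% and 5.08%. Scaling the libraries to each other by median-of-ratios factors moved the medians to 0.02 and 0, and scaling to equal totals to −0.19 and 0.04. Of 116 list genes counted as higher, 8 were no longer counted under median-of-ratios scaling and 10 under equal totals. Both scalings raise the primary library relative to both converted ones, so none of the 67 counted as lower could be lost. Under them 7 and 13 further list genes were counted as lower. Of the higher genes named below, both scalings end the call of Sparc, Gap43, Nnat, Ccnb1, Idi1 and Ezh2, and equal totals also end that of Fabp7 and Cth.

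**Figure D1:**
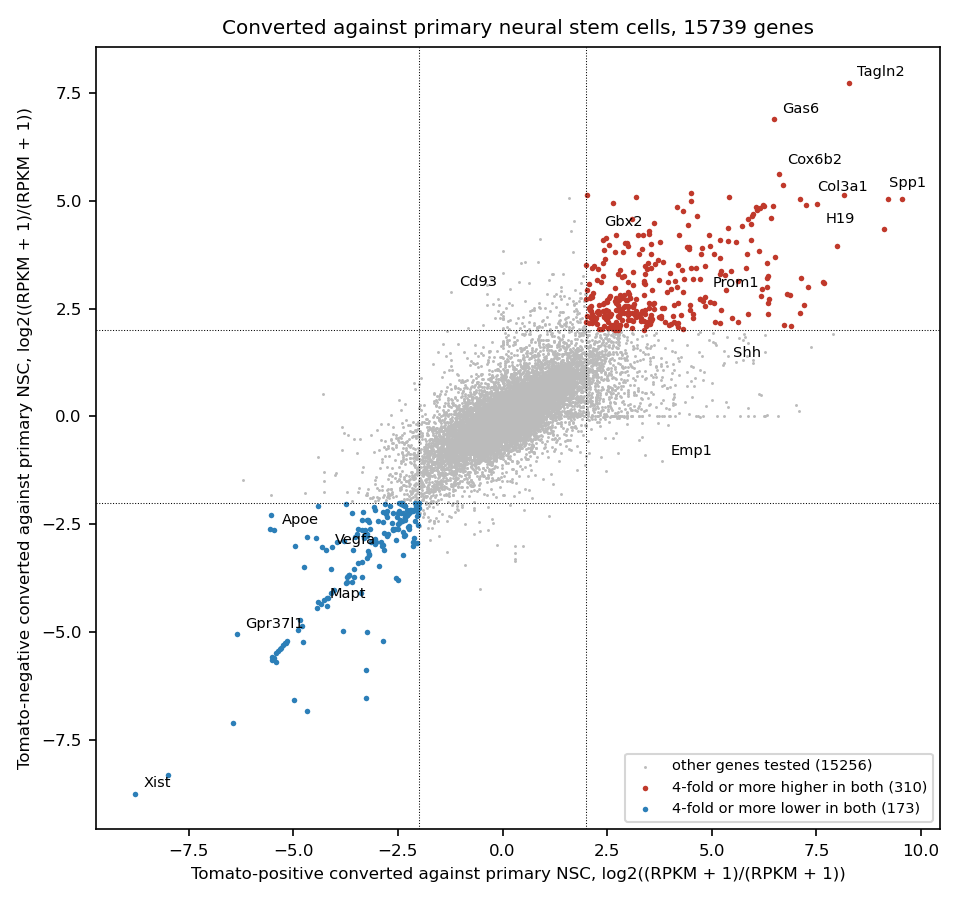
Each point is 1 of 15739 genes, with the log2 ratio of the Tomato-positive library to the primary library on the x axis and that of the Tomato-negative library on the y axis, and dotted lines at 4-fold. The 310 genes in red and 173 in blue passed 4-fold in the same direction in both, and no gene lies in the 2 opposite corners.

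**Figure D2:**
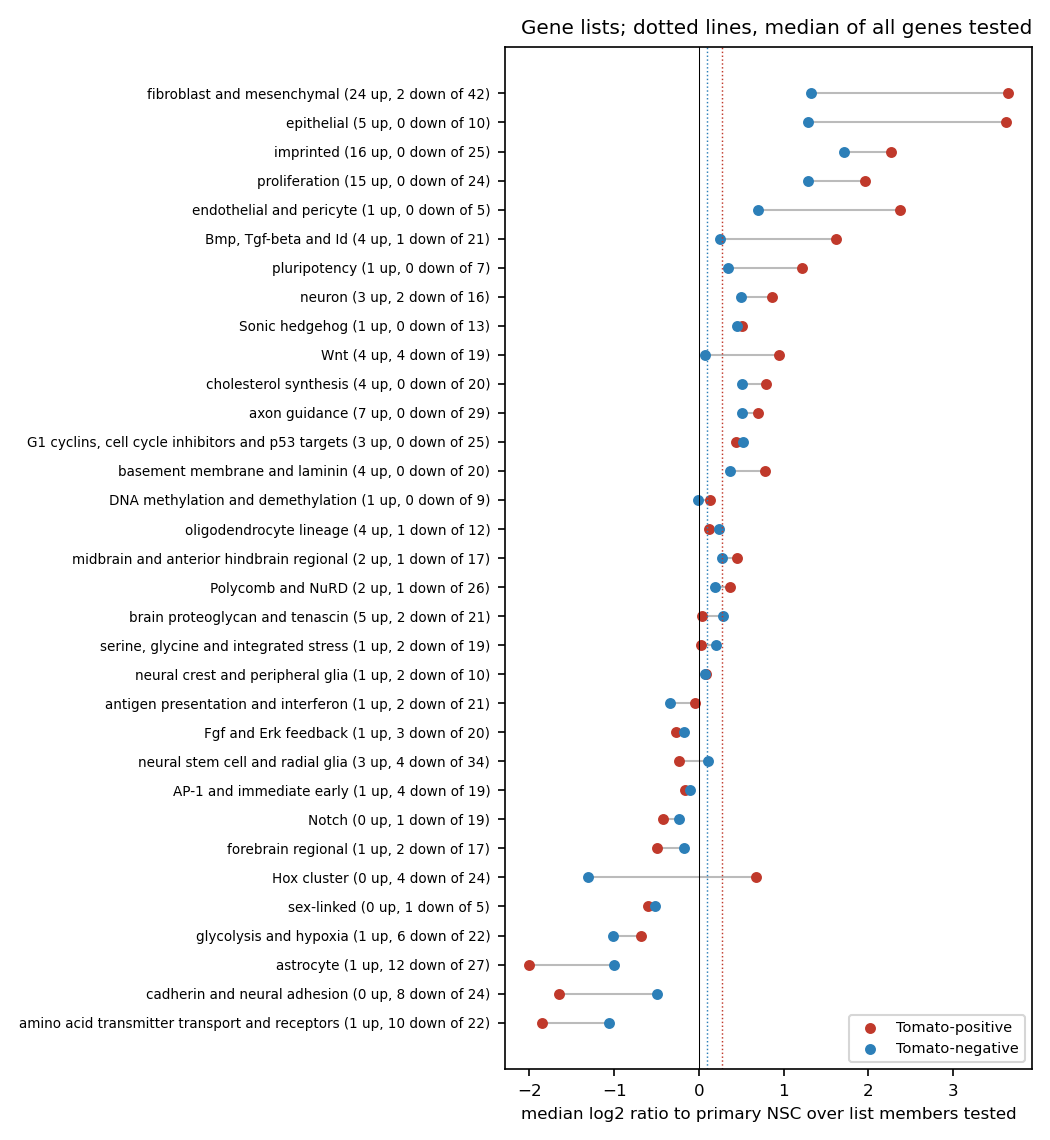
For each gene list with at least 5 members tested, the points give the median log2 ratio to the primary library in the Tomato-positive (red) and Tomato-negative (blue) libraries, with counts of members at least 2-fold higher or lower in both. Lists are ordered by the median of the mean of both ratios, which is above 1.5 for fibroblast, epithelial, imprinted and proliferation genes and below −1 for transmitter transport, adhesion and astrocyte genes.

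Most members of the neural stem cell and radial glia list passed 2-fold in neither direction. Of 34 members, 3 were higher in both converted libraries, 4 were lower in both and 27 were neither, with a median log2 ratio of −0.20. Where 3 values are given together here and below, they are RPKM in the Tomato-positive, the Tomato-negative and the primary library, in that order. Sox2, the factor that defines the lineage and is also part of OSKM, stood at 116, 119.8 and 201, and Olig2 at 262, 474 and 342, with the primary value between the converted ones. Pax6, a cortical progenitor factor, stood at 6.92, 14.7 and 19.9, lowest in the Tomato-positive library. Nes stood at 225, 451 and 123, lower in the primary library than in both converted ones.

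The 3 higher members were Prom1, Sox1 and Fabp7. Prom1, which encodes the stem cell surface protein CD133, stood at 29.5, 6.60 and 0.156, and the 95% interval of its read ratio to primary, which covers counting error only, was 119.9 to 321 in the Tomato-positive and 28.4 to 76.3 in the Tomato-negative library. Fabp7 was already abundant in primary cells, at 2394 RPKM, and stood at 6511 and 8761 RPKM in the converted libraries. Sox1, an early neural plate factor, stood at 8.15, 8.02 and 2.29. The 4 lower members were Nr2e1, Slc1a3, Fgfr3 and Cspg4. Nr2e1, the orphan nuclear receptor Tlx that maintains neural stem cells, stood at 0.0724, 5.17 and 19.6. Without the added 1 RPKM, its level was 271-fold lower than primary in the Tomato-positive and 3.80-fold lower in the Tomato-negative library. The first of these folds rests on a value near 0 and is imprecise. With 1 RPKM added, the mean log2 ratio of both pairs was −3.01. The growth factor receptor gene Fgfr3 stood at 54.6, 49.6 and 230.2, nearly equal in both converted libraries. Egfr, the receptor for the EGF in the medium, was not counted and stood at 23.98, 100.4 and 170.4.

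Genes of the cell cycle stood higher in both converted libraries. Of 24 proliferation genes, 15 passed 2-fold upward in both and none downward, with a median log2 ratio of 1.58, and 23 of the 24 stood higher in the Tomato-positive than in the Tomato-negative library, beside 61.1% of all genes. Origin licensing and replication genes led. Tyms, the thymidylate synthase gene, stood at 75.4, 39.7 and 7.85, Rrm2, a subunit of ribonucleotide reductase, at 432, 297 and 67.9, and Ccne1, the cyclin that drives entry into S phase, at 107, 59.9 and 13.01. All of Mcm2 to Mcm7, the subunits of the replicative helicase, passed 2-fold in both libraries, with Mcm2 at 178, 115 and 38.1 and Pcna, the sliding clamp, at 313, 196 and 74.4. Among mitotic genes Plk1, Bub1 and Ccnb1 were counted, whereas Mki67 at 116, 126 and 73.2 and Top2a at 452, 359 and 291 were under 2-fold in both pairs. Of 25 G1 cyclins, cell cycle inhibitors and p53 targets, 3 were higher and none lower (median 0.54), namely Perp, Phlda3 and Cdkn2b. The inhibitor gene Cdkn1a stood at 282, 346 and 182, and Cdkn2a at 87.1, 93.1 and 112.

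Genes of this set are textbook targets of E2F factors, so the 250 bases before their RefSeq start sites (GRCm38.p6, a patch release of the build also called mm10) were searched on both strands for the E2F-like words TTTCCCGC and TTTGGCGC. Of the 24 genes 20 had a promoter in the table, and 4 (20.0%) held a match, against 427 (1.30%) of 32851 promoters of the same length. The first share counts genes and the second counts single promoters, which were not limited to genes tested here. Since the genes are known E2F targets, a higher share gives no independent support. A match is a description of letters and shows no binding. The words do not overlap each other in the matches found. The 4 sequences shown are those of the list genes with a match, each 5′ to 3′ on the gene's strand with the match, in either orientation, in capitals. They lie at chr1:128359706-128359955 (minus strand, Mcm6), chr8:75109259-75109508 (plus strand, Mcm5), chr5:138171884-138172133 (minus strand, Mcm7) and chr11:98907901-98908150 (plus strand, Cdc6).
Mcm6: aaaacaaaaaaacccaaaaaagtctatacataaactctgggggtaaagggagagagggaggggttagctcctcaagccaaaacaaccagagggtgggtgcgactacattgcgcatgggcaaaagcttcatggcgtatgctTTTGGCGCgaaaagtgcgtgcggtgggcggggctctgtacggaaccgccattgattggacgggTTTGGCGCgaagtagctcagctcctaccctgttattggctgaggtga
Mcm5: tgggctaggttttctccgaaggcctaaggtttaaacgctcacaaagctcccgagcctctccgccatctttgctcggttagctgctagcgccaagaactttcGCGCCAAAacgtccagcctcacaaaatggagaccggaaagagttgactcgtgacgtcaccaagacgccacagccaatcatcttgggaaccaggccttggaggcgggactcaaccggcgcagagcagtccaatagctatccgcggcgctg
Mcm7: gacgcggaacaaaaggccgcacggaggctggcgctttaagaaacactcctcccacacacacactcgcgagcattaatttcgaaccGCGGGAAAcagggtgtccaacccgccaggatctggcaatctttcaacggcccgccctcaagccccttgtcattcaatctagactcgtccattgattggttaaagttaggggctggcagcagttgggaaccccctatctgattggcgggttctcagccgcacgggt
Cdc6: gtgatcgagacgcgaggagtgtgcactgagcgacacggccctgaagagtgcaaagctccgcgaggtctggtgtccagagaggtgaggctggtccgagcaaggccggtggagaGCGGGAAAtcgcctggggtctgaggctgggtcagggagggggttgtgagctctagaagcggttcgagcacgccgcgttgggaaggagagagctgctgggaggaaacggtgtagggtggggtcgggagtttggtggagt
Mcm6 alone held 2 matches. Its values were 244, 167 and 57.7 RPKM, those of Mcm5 220.0, 123 and 47.2, those of Mcm7 149, 78.3 and 29.8 and those of Cdc6, the loading factor of the helicase, 25.9, 13.8 and 5.03. In each of the 4 the Tomato-positive library was highest and the primary library lowest.

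Many, but not most, astrocyte genes stood lower in both converted libraries. Of 27 members tested, 12 were at least 2-fold lower in both, 1 was higher and 14 were neither. The median log2 ratio was −1.30 (−2.01 in the Tomato-positive and −0.998 in the Tomato-negative library). Gpr37l1, an astrocyte receptor gene, stood at 0.232, 2.01 and 99.02, and the intervals of its read ratio to primary were 0.00112 to 0.00431 and 0.0175 to 0.0235. Apoe, the lipid carrier gene, stood at 19.8, 147 and 916, and at 1107 RPKM in MEF. Atp1b2, a sodium pump subunit gene, stood at 39, 198 and 843. In these 3 genes the order was the same, with primary highest and Tomato-positive lowest. The exception was Aldh1l1, a folate enzyme gene used as an astrocyte marker, which stood at 23.2, 41.3 and 1.14. Gfap, the astrocyte filament gene, stayed low in all 3 libraries, at 1.21, 6.45 and 3.26.

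Transporters and receptors of amino acid transmitters followed, a list that shares members with the astrocyte list. Of 22 tested, 10 were lower in both and 1 higher, with a median of −1.41. The glutamate transporter genes Slc1a2 and Slc1a3 stood at 1.92, 21.4 and 135 and at 232, 650.4 and 1936, and the GABA transporter gene Slc6a11 at 40.4, 323 and 792. Gabra2, a GABA receptor subunit, stood at 2.58, 6.38 and 54.2, and Gabra4 at 1.71, 0.468 and 10.2. Ionotropic glutamate receptor genes differed between the converted libraries: Gria4 stood at 10.7, 76.1 and 86.01 and Gria2 at 16.7, 67.9 and 88.8, so the Tomato-negative values lay near primary and the Tomato-positive values below.

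Cadherin and neural adhesion genes were lower in 8 of 24 members and higher in none (median −1.36), and 17 of the 24 were at least 2-fold lower in the Tomato-positive library alone and 8 in the Tomato-negative library alone, where 11.4% and 6.68% of all genes were. Pcdh15, a protocadherin, stood at 0.388, 0.272 and 17.2, and Cntn1, a contactin of neuron and glia contacts, at 12.6, 18.1 and 133. Nlgn1, a synaptic adhesion gene, stood at 6.45, 7.92 and 36.4, and Nrcam at 35.6, 41.3 and 105. In each of these the converted values lay close together, far below primary. Cdh2, the N-cadherin of neuroepithelium, was not counted and stood at 141, 105 and 71.6. Of 21 brain proteoglycan and tenascin genes, 5 were higher and 2 lower, with a median of 0.07 that became −0.11 and −0.20 under the 2 scalings. Cspg5 stood at 18.7, 124 and 311 and Cspg4 (NG2) at 5.47, 14.8 and 42.5, whereas Mdk, the growth factor midkine, stood at 141, 27.6 and 1.01 and the glypican gene Gpc3 at 161, 22.3 and 0.787. Vcan, the versican gene, stood at 74.3, 47.6 and 20.2, and Bcan, the brevican gene, which was not counted, at 65.8, 496 and 711.

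Most regional genes, too, were under 2-fold in at least 1 pair. Of 17 midbrain and anterior hindbrain genes, 2 were higher and 1 lower, and of 17 forebrain genes 1 was higher (none under either scaling) and 2 lower, while 9 and 19 more members were under 2 RPKM in all 3 libraries. Gbx2, which sets the anterior hindbrain, stood at 9.62, 21.9 and 0.407. Nkx2-2, a factor of the ventral neural tube and of oligodendrocyte precursors, stood at 8.78, 15.6 and 0.903. Irx2 was lower, at 13.1, 10.7 and 27.3. In the forebrain list Zic1 was lower at 4.82, 10.5 and 38.05, and Emx2, a factor of the dorsal telencephalon, was not counted and stood at 1.53, 5.33 and 9.72.

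Hox genes, which mark hindbrain and spinal cord levels, set the converted libraries apart from each other. Of 24 tested, none was higher in both and 4 were lower in both, yet the median log2 ratio was 0.67 in the Tomato-positive and −1.31 in the Tomato-negative library. The Tomato-positive value was above the Tomato-negative value in 23 of 24 members, beside 61.1% of all genes. Hoxb2 stood at 19.6, 0.947 and 0.182, Hoxb8 at 8.79, 0 and 0.909 and Hoxb9 at 9.98, 0 and 15.1. A value of 0 allows up to 3 reads. The 4 genes lower in both were Hoxd10, Hoxd11, Hoxc4 and Hoxa4, with Hoxd10 at 0.289, 0 and 12.1 and Hoxa4 at 3.43, 0.254 and 10.1. Primary cells carried Hoxa5 and Hoxb9, genes of trunk levels, at 14.9 and 15.1 RPKM.

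Fibroblast and mesenchymal genes stood higher in both converted libraries. Of 42 tested, 24 passed 2-fold upward in both and 2 downward (median 2.52), and 37 of 42 stood higher in the Tomato-positive than in the Tomato-negative library, beside 61.1% of all genes. Col3a1 stood at 810.2, 43.7 and 0.366, Col1a1 at 123, 10.7 and 0.700 and Col1a2 at 171, 9.37 and 0.482, all genes of fibrillar collagen. The small proteoglycan genes Dcn and Lum stood at 317, 18.4 and 0.246 and at 151, 9.01 and 0.0908, and the surface marker gene Thy1 at 89.3, 15.03 and 0.833. In all 6 the Tomato-positive library was highest and the primary library was under 1 RPKM. The same genes stood far higher in MEF, with Col1a1 at 9085 and Col1a2 at 10202 RPKM, although Dcn and Lum, at 374 and 154 RPKM in MEF, were near their Tomato-positive values. The 2 lower members were Eln, the elastin gene, at 7.39, 21.1 and 44.3, and Fbln2 at 153, 196 and 396. Acta2, the smooth muscle actin gene, stood at 30.1, 18.9 and 1.61, and Sparc at 938, 825 and 410.0, so primary cells also carried transcripts of this list.

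Most other matrix genes passed in neither direction. Of 20 basement membrane and laminin genes, 4 were higher and none lower (median 0.41), led by Nid1 at 88.5, 9.44 and 0.129 and Lama4 at 27.2, 6.42 and 0.466. Lama1, the laminin chain of early embryos, stood at 16.7, 15.6 and 3.22, nearly equal in both converted libraries. Of 10 epithelial genes tested, 5 were higher and none lower (median 2.51), and 14 more were under the floor. Krt19 stood at 40.6, 9.17 and 0.0470 and Krt8 at 57.8, 3.05 and 0.0822, both genes of simple epithelial keratins, and Epcam at 4.08, 2.21 and 0.0908. Krt5, a keratin of basal epithelium, stood at 75.8, 0 and 0. The fibroblast markers, at 1914, 135 and 4.74 RPKM summed over 8 genes, move in the same order as these lists, and their part in the differences was not tested.

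Imprinted genes stood higher in both converted libraries, in 16 of 25 members tested and with none lower, at a median of 1.93 beside 0.18 over all genes. A further 7 members were under 2 RPKM in all 3 libraries. H19, Igf2, Cdkn1c, Dlk1, Meg3 and Rian reached 2 RPKM only in the converted libraries, so they entered the count through the side where they are high. Dcn, described above, belongs to this list as well. Mest, a paternally expressed hydrolase gene of growing embryonic tissue, stood at 1553, 1522 and 142, and Ndn, the necdin gene, at 71.4, 97.9 and 5.18. Peg10 stood at 108, 226 and 36.4 and Nnat, neuronatin, at 680.1, 1151 and 307. In Mest the converted libraries were nearly equal, and in Ndn, Peg10 and Nnat the Tomato-negative library was the higher one. Of the 25 members 18 stood higher in the Tomato-positive than in the Tomato-negative library and 7 did not, beside 61.1% higher over all genes. H19 and Igf2, the noncoding RNA and the growth factor of 1 imprinted locus, stood at 471, 76.5 and 1.58 and at 98.8, 13.55 and 0.244, with Tomato-positive highest, and at 18104 and 3008 RPKM in MEF. Cdkn1c, a cell cycle inhibitor, stood at 22.6, 6.03 and 0.398, and Dlk1 at 58.7, 2.84 and 0.0689. Meg3 and Rian, noncoding RNAs of the Dlk1 locus, stood at 3.98, 4.61 and 0.0310 and at 5.15, 2.36 and 0.0227. Of the exon bases of Meg3 56.05% and of Mest 35.1% are shared with another gene, and without strand their reads cannot be told apart from that gene's. Igf2r, Gnas and Peg3 were not counted, with Gnas at 861, 812 and 616.

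**Figure D3:**
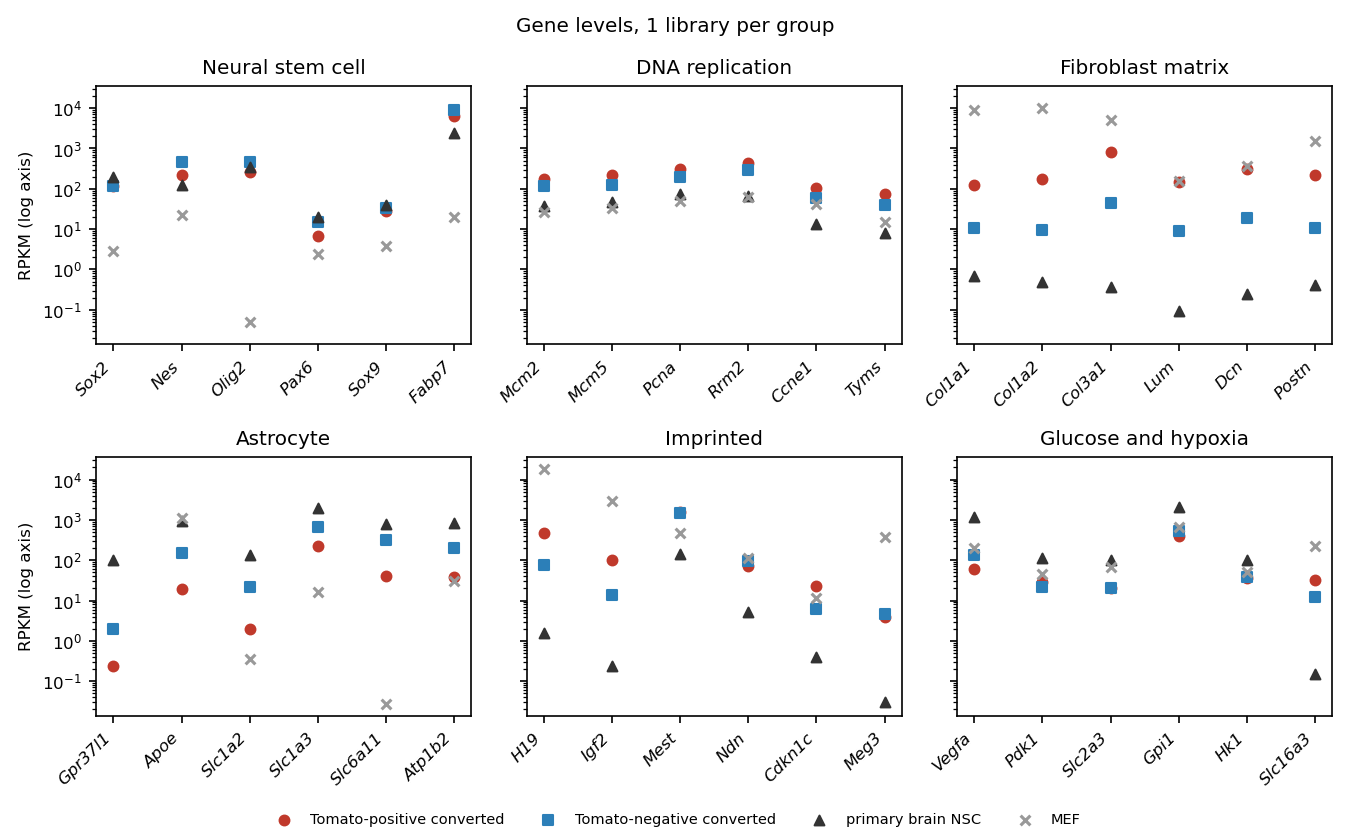
RPKM on a log axis for 6 genes of each of 6 groups, with 1 point per library for Tomato-positive (red circle), Tomato-negative (blue square), primary (black triangle) and MEF (grey cross); Gpr37l1 is listed at 0 in MEF and has no cross. The 6 neural stem cell genes lie above MEF in all 3 neural libraries. Fibroblast and imprinted genes lie lowest in primary, and the astrocyte genes drawn lie highest in primary or, for Apoe, in MEF.

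Genes of glycolysis and of the response to low oxygen were lower in 6 of 22 members and higher in 1, with a median of −0.86. Vegfa, the vessel growth factor gene and a target of Hif1, stood at 62.2, 136 and 1169, and its read ratio to primary had intervals of 0.0509 to 0.0541 and 0.115 to 0.118. Pdk1, the kinase that closes the entry of pyruvate into mitochondria, stood at 29.2, 21.5 and 112, and the glucose transporter gene Slc2a3 at 20.1, 20.2 and 102. Gpi1, the second enzyme of glycolysis, stood at 408, 534 and 2096, with 19.8% of its exon bases shared with another gene, and Hk1 at 35.99, 39.3 and 99.3. The converted values of Pdk1, Slc2a3 and Hk1 lay close together and below primary. Slc16a3, the lactate exporter Mct4, went the other way at 31.7, 11.9 and 0.150. Pkm and Aldoa, enzymes of the later and middle steps, were not counted and stood at 1308, 969 and 1100.4 and 1653, 1054 and 2062. Taken alone, the Tomato-negative library had 13 of the 22 at least 2-fold lower and the Tomato-positive library 7, beside 6.68% and 11.4% of all genes. Eno2, the enolase of neurons and a gene outside this list, was among the lowest of all, at 5.73, 5.20 and 88.8.

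Cholesterol synthesis genes were higher in 4 of 20 and lower in none (median 0.66). Mvk, the mevalonate kinase gene, stood at 122, 68.8 and 27.98 and Idi1, an isomerase gene of the same route, at 201, 134 and 65.4. Fdps and Sqle, the squalene epoxidase gene, were not counted and stood at 247, 99.3 and 51.8 and 244, 216 and 116. In all 4 the Tomato-positive library was highest and the primary library lowest. Of 19 genes of serine and glycine metabolism and integrated stress, 1 was higher and 2 lower, and the median of 0.07 became −0.12 and −0.21 under the 2 scalings. Aldh1l2, a mitochondrial folate enzyme gene, and Ddit3, the stress factor Chop, were the lower ones, at 30.6, 61.3 and 200.5 and 43.03, 49.3 and 151, and Cth, the cystathionase gene, was higher at 42.3, 77.8 and 16.1.

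Among signalling pathways, most members passed in neither direction. Of 20 Fgf and Erk feedback genes, 1 (Dusp4) was higher and 3 lower. Fgf1 stood at 18.6, 19.01 and 88.3, while the feedback inhibitor genes Spry2 and Spry4 stood at 148, 212 and 322 and 47.7, 92.7 and 57.03. AP-1 and immediate early genes had 1 of 19 higher and 4 lower, with Egr1 at 25.1, 64.9 and 134, Fos at 8.11, 9.19 and 22.3 and Jun at 48.6, 40.9 and 100.1, and Arc higher at 11.4, 13.4 and 1.09. Of 19 Notch genes, Hey2 alone was counted, lower at 0.454, 0.738 and 6.27. The ligand gene Dll1 stood at 17.8, 42.7 and 37.8 and the target genes Hes1 and Hes5 at 38.8, 42.9 and 59.4 and 6.16, 22.5 and 34.5.

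Wnt genes had 4 of 19 higher and 4 lower. The secreted inhibitor genes Sfrp1 and Dkk3 were higher, at 19.7, 10.1 and 0.0593 and 18.4, 7.57 and 0.0772, as was the receptor gene Fzd1 at 41.1, 39.98 and 9.79. The target genes Axin2 and Nkd1 were lower, at 8.99, 21.05 and 58.6 and 10.6, 14.7 and 39.5, with the receptor genes Fzd9 at 10.5, 16.1 and 77.3 and Lgr5 at 9.99, 6.45 and 25.6. In all 4 the primary library was highest. Of 13 Sonic hedgehog genes 1 was higher, Shh itself, at 38.3, 1.34 and 0, but 90.8% of its exon bases are shared with another gene model, and the reads of the pair cannot be told apart. The target gene Gli1 stood at 8.05, 0.512 and 0.0183 and the receptor gene Ptch1 at 54.3, 51.4 and 55.2. Bmp and Tgf-beta genes had 4 of 21 higher and 1 lower (median 1.05). Tgfbi stood at 247, 10.8 and 2.20, the receptor gene Tgfbr2 at 42.2, 31.4 and 5, the inhibitor gene Id4 at 15.6, 6.65 and 1.81 and Ltbp1 at 11.4, 9.20 and 3.22, and the Bmp antagonist gene Chrd was lower at 2.45, 1.57 and 6.88.

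Axon guidance genes were higher in 7 of 29 and lower in none (median 0.63). Slit1, a repellent ligand, stood at 24.9, 4.72 and 0.110, and the ligand gene Efnb3 at 12.3, 10.3 and 0.279. Slit2 stood at 25.6, 2.23 and 0.542, but its direction reversed when the highest exon of each gene was used (log2 −0.81). The receptor genes Robo1 and Dcc were not counted and stood at 22.5, 26.6 and 30.5 and 5.71, 9.50 and 15.9.

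Lists of other cell types were small. Of 12 oligodendrocyte lineage genes, 4 were higher and 1 lower. Sox10, the factor of oligodendrocytes and neural crest glia, stood at 5.45, 4.55 and 0.628, Pdgfra, the precursor receptor, at 26.7, 12.48 and 5.36, and Gpr17 at 2.13, 3.32 and 0.228. Of 16 neuron genes 3 were higher and 2 lower. Stmn2, a growth cone gene, stood at 27.6, 5.75 and 0 and Gap43 at 585, 432 and 213, both higher, and Gad1 and Elavl3 were lower at 1.51, 3.12 and 27.8 and 4.52, 6.21 and 22.4. Of 10 neural crest and peripheral glia genes 1 was higher and 2 lower, with Msx1 at 0.598, 0.295 and 6.66. In the endothelial list Vtn, and in the ependymal list Foxj1, was counted as higher, at 26.9, 6.05 and 0.0637 and 10.7, 13.48 and 1.68. No leukocyte gene was counted. In the muscle list Actc1 was lower at 1.19, 2.48 and 20.4. Of 21 antigen presentation and interferon genes, Bst2 was higher at 41.5, 26.5 and 5.49, and Ifi27 and Rsad2 were lower, at 37.05, 15.1 and 109 and 0.195, 0.334 and 2.14.

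Pluripotency genes were near the floor, with 22 of 29 under 2 RPKM in all 3 libraries. Nanog was the 1 counted as higher, at 5.27, 1.37 and 0.154, against 772 in iPSC. None of the 4 reprogramming factors was counted. Myc stood at 90.5, 68.5 and 42.3, Klf4 at 3.52, 4.97 and 7.90 and Pou5f1 at 3.13, 1.32 and 1.55, values that do not separate transgene from endogenous transcripts. Of 26 Polycomb and NuRD genes, 2 were higher and 1 lower. Hdac1, a deacetylase of NuRD, stood at 73.6, 47.7 and 15.8. The histone methyltransferase gene Ezh2 was higher at 179, 157 and 77.02, a call that both scalings end, and its relative Ezh1 was lower at 3.86, 3.20 and 16.2. The median of 0.21 of this list became 0.04 and −0.04 under the 2 scalings. Uhrf1, which guides maintenance methylation in dividing cells, was the 1 of 9 DNA methylation genes counted, at 146, 94.7 and 33.6.

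The genes with the largest difference in both pairs had mostly no place in the lists. Tagln2 (transgelin-2, an actin-binding protein; chromosome 1, 172500047 to 172507380, mm10) stood at 464, 321 and 0.510, and at 608 RPKM in MEF. Its read ratio had intervals of 637 to 1573 and 442 to 1091. Gas6 (chromosome 8, 13465374 to 13494490), the ligand of the Axl receptor family, stood at 106, 140.4 and 0.189. Cox6b2 (chromosome 7, 4751792 to 4753094), an isoform gene of a cytochrome c oxidase subunit known from testis, stood at 122, 60.5 and 0.255. In Gas6 the Tomato-negative library was highest, in the other genes the Tomato-positive one.

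Apod, an apolipoprotein gene, stood at 329.6, 39.8 and 0.160, and Cstb, a cathepsin inhibitor, at 169.7, 40 and 0.246. Spp1, the secreted phosphoprotein osteopontin, stood at 1985, 86.6 and 1.68, and so was 1185-fold and 51.7-fold above primary, the converted libraries being far apart. The matrix protease genes Mmp2 and Mmp14 stood at 178, 33.8 and 0.169 and 209, 69.5 and 1.40. Igf2bp3, an RNA-binding protein of embryonic tissue, stood at 51.6, 51.5 and 1.44, nearly equal in both converted libraries, with 51.05% of its exon bases shared with another gene. Mfsd2a, the lipid transporter of brain endothelium, stood at 92.8, 25.6 and 0.0934. Tmem223 stood at 124, 99.2 and 1.93 and Myof, a membrane repair protein, at 25.8, 36.8 and 0.185. Plac9a and Cldn34c2, both of families with near-identical copies whose reads cannot be told apart, had no read in primary.

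The rule favours genes with low primary values. Of the 310 higher genes, 187 stood under 1 RPKM in primary and 39 were listed there at 0. No share over all genes tested stands beside these counts, so they describe the choice of genes only. In the 4 libraries that the rule did not use, the 310 genes reached 2 RPKM in 85.2% of cases in MEF, 71.9% on day 6 of the conversion (sorted Tomato-positive cells), 69.4% in iPSC and 77.4% in ESC, against 87.4%, 80.9%, 82.3% and 85.2% of all genes tested. Their median was 30.8 RPKM in MEF, against 19.3 over all genes. On day 6, in iPSC and in ESC it was 11.5, 11.5 and 21.2 RPKM, against 16.3, 18.3 and 20.3 over all genes. Of the 310 genes, 55 were under 1 RPKM in primary and at 10 RPKM or more in all 4 of those libraries. By a count chosen after the values were seen, 27 genes were under 1 RPKM in primary and at 10 RPKM or more in all 6 other libraries. The same count gave 0 for either converted library, 2 for MEF, 7 for day 6, 3 for iPSC and 0 for ESC. A gene low in both converted libraries, or in both iPSC and ESC, cannot meet this count for either. Primary has no such partner in the series, so these counts do not compare like with like.

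These 27 genes included Tagln2, Cox6b2, Cstb, Gas6, Myof and the annexin genes Anxa4 and Anxa11, which bind membranes in response to calcium. Anxa11 (chromosome 14, 25842156 to 25886804) stood at 62.2, 21.7 and 0.0379 and Plac9a, its neighbour at 25887506 to 25903100, at 103, 39.8 and 0. Churc1, Dera, Smim20 and Chchd10 belonged to the set as well, with Dera, a deoxyribose phosphate aldolase, at 43.8, 23.97 and 0.657 and Churc1 at 73.9, 19.7 and 0.217. S100a6, a calcium-binding protein, stood at 829.9, 29.5 and 0.508. Col3a1, Col1a1 and Mmp2 also met the count. The labels place MEF feeders with ESC, where Col1a1 stood at 291 RPKM, and the part of feeder RNA in the ESC values was not tested.

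**Figure D4:**
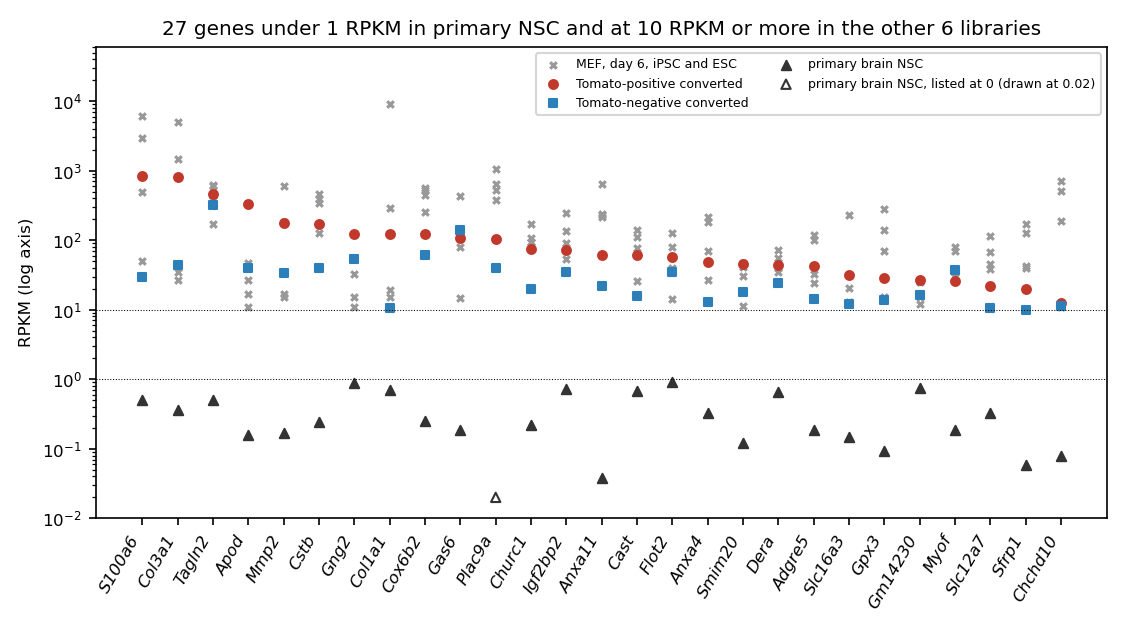
RPKM on a log axis of the 27 genes that were under 1 RPKM in the primary library and at 10 RPKM or more in the other 6, with 1 point per library and dotted lines at 1 and 10 RPKM. By this choice of genes the black triangles of the primary library lie apart from all other points, and Plac9a, listed at 0 there, is drawn as an open triangle at 0.02.

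Among the lower genes, Xist (chromosome X, 103460366 to 103483254), the RNA that silences an X chromosome in female cells, stood at 0.0140, 0.0468 and 447. Of its exon bases 50.1% are shared with a gene model on the other strand, Gm26992, which stood at 0.450, 0.153 and 365, and the reads of the pair cannot be told apart. Xist was the 1 of 5 sex-linked genes counted. The Y-linked genes Ddx3y, Eif2s3y and Kdm5d were listed at 0 in all 3 libraries, against 42.8, 114 and 8.81 RPKM in MEF. Uty, also Y-linked, stood at 0, 0 and 0.00369, against 15.1 RPKM in MEF. The converted libraries thus held almost no Xist and no transcripts of these Y-linked genes, and the sex of the cells was not tested. Mapt, the tau gene of neurons, stood at 5.12, 5.04 and 122, nearly equal in the converted libraries. Agt, the angiotensinogen gene made by astrocytes, stood at 0.779, 3.24 and 46.6, and Scrg1 at 19.2, 11.4 and 209. Nrn1, the neurite factor neuritin, stood at 7.17, 11.2 and 139, Fgf11 at 3.61, 17.1 and 144 and the phosphatase-like gene Plppr5 at 0.619, 0.716 and 14.01. Of the 173 lower genes, 76 were under 1 RPKM in both converted libraries, a level that the rule itself favours. Protein coding were 120 of the 173 and 262 of the 310 higher genes, with no share over all genes tested to set beside them. Of the 173, 36 lay in 1 region of chromosome X described below, and 13 of these were protein coding. In the unused libraries the 173 genes had low values too, with medians of 1.37 RPKM in MEF, 1.36 in iPSC, 4.67 in ESC and 0.178 on day 6.

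Some of the counted genes lay side by side, in regions chosen after seeing the data. On chromosome X 42 genes were lower, and 36 of them lay in 1 multicopy region between 147742175 and 149984982 that holds Ott and Luzp4. Their primary values ran from 3.02 to 48.9 RPKM, and 23 of the 36 were at 0 in the Tomato-positive and 34 in the Tomato-negative library. In iPSC the 36 ran from 0.171 to 29.9 RPKM and in ESC from 1.84 to 83.6, whereas the highest value was 0.296 RPKM in MEF and 0.648 on day 6. Ott stood at 0.0476, 0 and 40.7 and Luzp4 at 0.0498, 0 and 37.3. Without the 41 genes tested in the region, X had 26 higher and 6 lower genes of 726. On chromosome 4, 11 of the 29 genes tested between 41903610 and 42773993 were lower. Among these 11 was the chemokine gene Ccl21a, at 0.242, 0.438 and 9.24 RPKM. On chromosome 2, 8 higher genes of a zinc finger region between 177464733 and 177855503 ran from 570.6 to 9123 RPKM in the Tomato-positive and from 7.39 to 146 RPKM in the primary library. Copies in these regions are near-identical, so the counts do not hold for single genes, nor on chromosome 4 for all genes of the span. Without the counted genes of the 3 regions, a choice made after seeing the data, 302 genes were higher and 126 lower. Only counted genes were left out, so this fall was fixed in advance.

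Chromosome 11 differed as a whole. The median log2 ratio of its 1234 genes was −0.07 in the Tomato-positive and −0.24 in the Tomato-negative library, whereas the other 18 autosomes with a value ran from 0.12 to 0.46 and from 0.0050 to 0.23. Of its genes 52.1% and 65.3% stood below primary, against 37.4% and 41.4% on other autosomes. At 2-fold in both, 9.40% of chromosome 11 genes were lower, against 4.47% elsewhere. Set against the mean of the 4 unused libraries, the shift lay in primary, at 0.29 relative to other autosomes, and was −0.03 and −0.04 in the converted libraries. Primary also stood at −0.31 on chromosome 14 and at 0.20 on chromosome 18. Each of the 4 unused libraries set against the other 3 shifted by −0.07 to 0.14 on chromosome 11, and by −0.21 to 0.23 over all 19 autosomes, a range that holds the primary value on chromosome 18. Of the lower genes named above, Mapt, Fgf11, Axin2, Ezh1 and Atp1b2 lie on chromosome 11, but Vegfa, Gpr37l1 and the astrocyte genes Apoe, Slc1a2 and Slc1a3 do not.

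**Figure D5:**
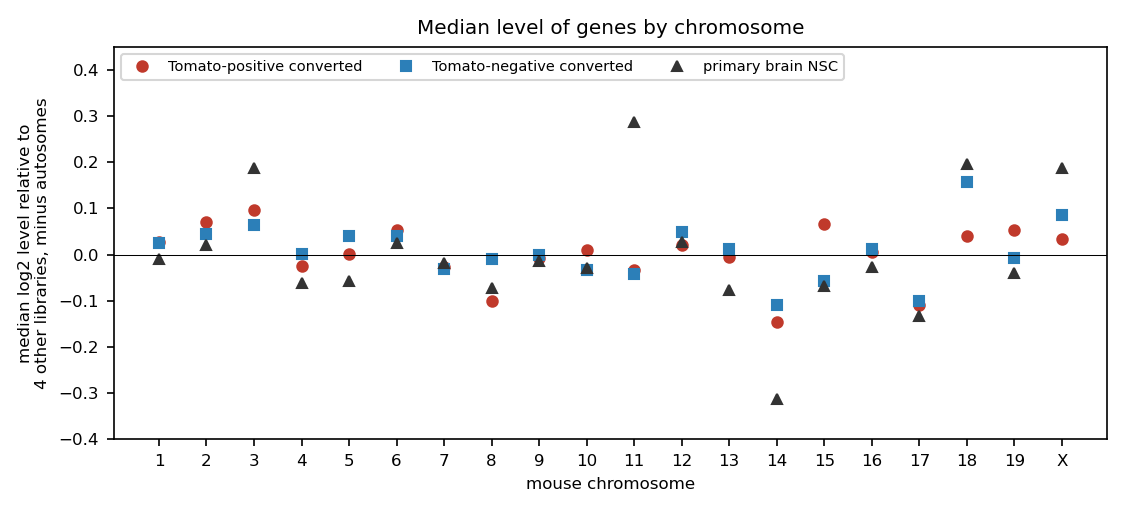
For each chromosome, the points give the median log2 level of its genes relative to the mean of MEF, day 6, iPSC and ESC, less the value over autosomes, in the Tomato-positive, Tomato-negative and primary libraries. The primary library stands at 0.29 on chromosome 11 and at −0.31 on chromosome 14, and the converted libraries lie between −0.15 and 0.16.

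Close to the 4-fold limit, Fmo1 was inside at log2 ratios of 2.003 and 3.50 and Ddit4l at 3.39 and 2.01, while Trim5 was outside at 1.99 and 2.31 and Epha2 at 1.995 and 2.29. On the lower side Arsb was inside at -2.01 and -2.29 and Crebrf at -2.001 and -2.12, and Gna15 and Gbp10 were outside at -1.99 and -1.98 in the Tomato-positive library.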

How the data were processed

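The authors deposited 1 table of RPKM values per Ensembl exon and library. The submitters' processing notes list TopHat2 2.0.10, Bowtie, bedtools and CASAVA 1.8.2 with the build mm10; the role of each is not given in the sources used here. From these RPKM values, 270168 of 279252 exons (96.7%) were matched by identifier to the GENCODE M21 annotation, and a gene's value was the exon-length-weighted mean. Strand was not used. A total of 6724 exons share bases with an exon of another gene and were kept. Whole megareads of depth were inferred from the steps of the values, of which 96.3% to 96.5% were whole reads within 0.01 read plus 1e-05 of the value. Read ratios have exact 95% Clopper-Pearson intervals that cover counting error only. No count test was run, since each group had 1 library. All 7 value columns were mapped to a sample.

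The genes compared, the 37 gene lists (864 entries, 829 genes, from textbook knowledge) and the counts were chosen with earlier results of these data known, so they give no independent support. Of the list genes 825 were measured and 624 reached the floor of 2 RPKM. Named genes are the 20 highest and 20 lowest by the smaller of both ratios, leaving out unnamed gene models and pseudogenes, together with list members, 10 fixed genes and the 10 largest differences in opposite directions; others are said to be chosen after their values were seen. Some genes named by this rule are not reported here. Setting each value of 0 to 3 reads moved no list median by more than 0.034. Rules were tested on simulated data. Alternatives were 2 scalings, pseudocounts of 0.25 and 4 RPKM, floors of 0 and 8 RPKM, the highest exon, exons that overlap no other gene, each converted library alone and 2-fold and 8-fold limits. Python 3.11.15, numpy 2.4.6, pandas 2.3.3, scipy 1.17.1 and matplotlib 3.10.9 were used.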

Additional observations from a re-analysis of the deposited data

Results flagged for a closer look

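Some genes stood at least 2-fold above the primary library in one converted library and 2-fold below it in the other, 22 in all, 9 of them higher in the Tomato-positive and 13 higher in the Tomato-negative library. The 10 with the largest difference between the ratios are given with the log2 ratio in the Tomato-positive library less that in the Tomato-negative library. Each rests on 1 library per group, the primary library is shared by both ratios, and the difference between them was not tested.

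Emp1, a membrane protein of proliferating epithelium and fibroblasts, stood at 237, 7.29 and 15.95 RPKM in the Tomato-positive, Tomato-negative and primary libraries, a difference of 4.84. Fn1, the fibronectin gene, stood at 338, 24.2 and 59.7 RPKM in these libraries, a difference of 3.75. Col4a1, a basement membrane collagen gene, stood at 323, 38.5 and 93.3 RPKM (3.04), and Loxl2, a collagen cross-linking enzyme gene, at 146, 15.1 and 54.9 RPKM (3.19). The transcription factor gene Tbx2 stood at 10.8, 0.105 and 4.43 RPKM (3.42) and the growth factor binding protein gene Igfbp6 at 10.8, 0.364 and 1.998 RPKM (3.11). In MEF these 6 genes stood between 6.71 RPKM for Tbx2 and 2583 RPKM for Fn1.

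In the other direction Cd93, a receptor gene of endothelium and immune cells, stood at 5.43, 110.1 and 14.2 RPKM, a difference of −4.11. Ccbe1, a matrix gene of lymphatic growth, stood at 3.01, 38.5 and 9.05 RPKM (−3.30), Crispld2 at 0.830, 14.6 and 3.87 RPKM (−3.10) and the olfactory receptor gene Olfr287 at 0.254, 8.19 and 2.98 RPKM (−2.87). The 4 genes were lowest in the Tomato-positive and highest in the Tomato-negative library.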

How the results depend on the processing

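The 310 higher and 173 lower genes became 639 and 267 with a pseudocount of 0.25 RPKM, 99 and 78 with one of 4 RPKM, 648 and 316 with the highest exon of each gene, 1083 and 461 with the Tomato-positive library alone, 1285 and 799 at 2-fold and 99 and 58 at 8-fold. They stayed within 1.5 times at 279 and 203 under median-of-ratios scaling and at 277 and 218 under equal totals. The same held for 267 and 140 with a floor of 8 RPKM and 316 and 172 without exons that overlap another gene. It also held for 464 and 234 with the Tomato-negative library alone. No floor left both counts as they were. Leaving out the counted genes of the 3 multicopy regions, an alternative added after seeing the data, gave 302 and 126 by construction. The higher share of counted genes was 64.2% as deposited and 57.9% and 56.0% under the scalings. Over all alternatives, 138 of 814 list counts and 71 of 407 list medians moved. Glycolysis and hypoxia genes lower in both were 10 under equal totals, against 6, and with a pseudocount of 4 RPKM 9 imprinted genes, 2 axon guidance genes and 1 epithelial gene were higher, against 16, 7 and 5; the cause was not tested. Of the single-gene ratios Slit2 reversed, to −0.81 with the highest exon. No paired analysis was possible because each group has 1 library. Depth limits low genes most in the Tomato-positive library, at 19 megareads.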
